A study of Mus musculus with 39 samples.

Results

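Brown fat of mice that lack Cre was compared between warm and mildly cool housing, using the 8 control RNA libraries of the series: 4 from mice kept at 30 °C and 4 from mice kept at 22 °C, of 16 RNA libraries and 39 samples in all. Libraries were chosen by their labels (no Cre, RNA, housing temperature) and not by any measured value. All mice were male and C57BL/6J, with a Bcl6 gene flanked by recombination sites, fed standard chow under a 12 h light and dark cycle, and the sources used here state neither their age nor how long they were housed at each temperature. The other 8 RNA libraries came from mice that carried the same floxed gene together with Cre driven by the Ucp1 promoter, 4 at each temperature, and served as a separate set in which the same temperature comparison could be made. The tissue was the interscapular brown depot, homogenised whole, so each library mixes all cell types of the dissected pad. The labels do not say that libraries came from separate animals, so p-values measure the spread between these samples.

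Brown adipocytes burn fatty acids and glucose in mitochondria that UCP1 uncouples from ATP synthesis, and so turn fuel into heat. Noradrenaline from sympathetic nerves drives this through beta-adrenergic receptors and cAMP, which raises lipolysis at once and transcription of Ucp1, Ppargc1a and Dio2 later. Room temperature is a mild cold load for a mouse, while near thermoneutrality the depot needs little heat and turns pale and lipid-filled.

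Values are normalised counts, scaled between libraries by the authors, and differences are log2(value + 1) at 30 °C minus 22 °C. Of 24116 gene entries, 13176 had a mean of at least 10 over the 16 RNA libraries and were tested. Totals of the normalised counts were 9387313 to 9975035 at 30 °C and 12064137 to 13516936 at 22 °C, a ratio of 0.759 with no overlap (two-sided exact permutation p = 0.0286, the smallest that 4 against 4 allow). Reads per library are unknown, so no counting intervals are given. Control 22 °C library 1 was the sparsest, with 14311 genes above 0 where the other 7 had 15611 to 16849, and it had the highest value of the 8 in Ndufs8, Sdhd, Cox5a and Cox6a1, described below. The markers of mature adipocytes were high in all 8 libraries, which fits the label of the tissue: Adipoq, the adipocyte hormone adiponectin, ran from 13452 to 22263 and Ucp1 from 13596 to 119740.

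Skeletal muscle RNA separated the groups. The muscle score, the mean log2 deviation of 45 muscle markers from their means over the 16 libraries, was 2.08, 1.35, 1.27 and 1.23 in the 4 libraries at 30 °C and -2.97, -2.82, 0.07 and -1.27 in those at 22 °C. All 4 warm libraries therefore held more muscle RNA than any cool one. The markers together made up 0.173 to 0.300% of the library total at 30 °C and 0.030 to 0.070% at 22 °C. Ttn, which encodes the giant sarcomere protein titin, stood at 1492, 956, 883 and 702 at 30 °C and at 0, 3.11, 376 and 70.3 at 22 °C (limma adjusted p = 0.0411), and Myh7 and Myl2, a slow myosin heavy chain and light chain, were at 0 in cool libraries 1 and 2. Of the 45 markers, 25 were higher and 0 lower, with a median log2 difference of 3.66, but without cool library 1 or 2 only 5 were called, and 4 to 13 without any other library except cool library 3 (30). With the muscle score as a covariate 3 were called higher and 2 lower, but the score is the mean of these same markers. Their shared difference is thus removed by construction, so this fit cannot test them. Among Cre-labelled libraries, where muscle did not separate the temperatures, the median of the same markers was 0.20. For this reason the main groups below are also given with the muscle score as a covariate or in the Cre-labelled libraries.

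**Figure D1:**
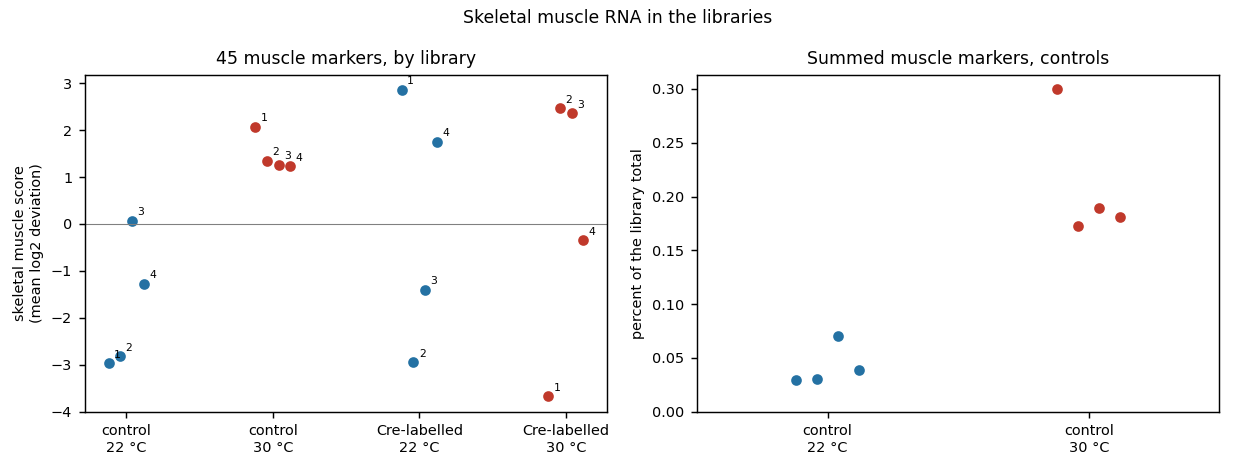
Skeletal muscle RNA by library. Left, the score over 45 markers (log2 units) for each library of the 4 RNA groups, numbered by library: the 4 control libraries at 30 °C lie between 1.23 and 2.08 and those at 22 °C between -2.97 and 0.07, while both Cre-labelled groups span both signs. Right, the same markers summed as a percent of the library total in the 8 controls.

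By limma with Benjamini-Hochberg adjustment, 3012 genes were higher at 30 °C (22.9% of those tested) and 2987 lower (22.7%), 45.5% in either direction. Of the higher genes 1241 differed by at least 2-fold and 262 by at least 4-fold, against 576 and 80 of the lower genes. The shares of 22.9 and 22.7% are the background for every count below that is given as deposited. A count or median under another setting has that setting's own background over the same genes, given next. The split rests on the scaling: with library totals set equal, the median of all genes moved from 0.04 to 0.43 and the counts became 6569 higher and 1161 lower, and with totals set equal over all but the top 50 and muscle genes 5302 and 1601. Quantile normalization gave 2382 and 2791 (median of all genes -5e-04), and the muscle covariate 2267 and 2346 (0.02). Since the authors' scaling divides out library size, a change in RNA per depot could not be seen.

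The thermogenic core fell. Ucp1 (chr8:83290348-83298456 in mm10, GRCm38.p6), the uncoupling protein, stood at 96862, 119740, 81988 and 56684 in the 4 libraries at 22 °C and at 17713, 18219, 16857 and 13596 at 30 °C. The groups did not overlap, as in 41.2% of the genes tested, and all 4 warm values lay within a narrow band while the cool ones differed among themselves by more than 2-fold. The means were 88819 ± 26458 and 16596 ± 2078 (SD, n = 4), 5.35-fold lower in the warm (log2 difference -2.38, SE 0.25, limma adjusted p = 2.77e-06). Dio2, the deiodinase that makes active thyroid hormone inside the brown adipocyte, was 1632, 2207, 4242 and 7357 at 22 °C and 160.4, 163, 87.7 and 95 at 30 °C (log2 difference -4.73, SE 0.59, limma adjusted p = 1.65e-05). Elovl3, an elongase of very long chain fatty acids induced by cold, had the lowest difference of all genes named by rule: it went from 283, 1718, 999 and 749.7 to 8.14, 14.7, 5.78 and 1.98 (log2 difference -6.73, SE 0.55, limma adjusted p = 3.14e-07). Ucp1, Dio2 and Elovl3 thus dropped in every warm library below every cool library. With the muscle covariate their differences were -2.32, -5.25 and -7.23.

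Gk, the glycerol kinase that lets brown adipocytes reuse glycerol, fell from 2167, 5102, 4535 and 3278 to 402, 416, 346 and 396 (log2 difference -3.20, SE 0.32, limma adjusted p = 2.29e-06). Otop1, a proton channel enriched in brown fat (-2.17), and Letmd1, a protein of brown fat mitochondria (-1.11), also fell, with no overlap (limma adjusted p = 4.33e-07 and 2.18e-06). Cidea, a lipid droplet protein that marks brown adipocytes, fell less: it was 56986, 39200.2, 39649 and 38903 at 22 °C, highest in cool library 1, and 24978, 25512, 24484 and 23429 at 30 °C (log2 difference -0.81, SE 0.19, limma adjusted p = 0.00234), a call lost under quantile normalization (0.469). In all, 23 of 36 tested effectors and identity genes were lower and 3 higher, with a median of -0.64 where all genes had 0.04. With equal totals, and also under quantile normalization, 17 were lower and 5 higher, with the muscle covariate 20 and 3. The 3 higher ones, named after their values were seen, were Impdh1, an enzyme of guanine nucleotide synthesis (1.42), Lhx8, a homeobox factor of brown adipocytes (1.45), and Ntrk3, a neurotrophin receptor (0.72). In whole tissue, fewer brown adipocytes and less RNA per adipocyte cannot be told apart.

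**Figure D2:**
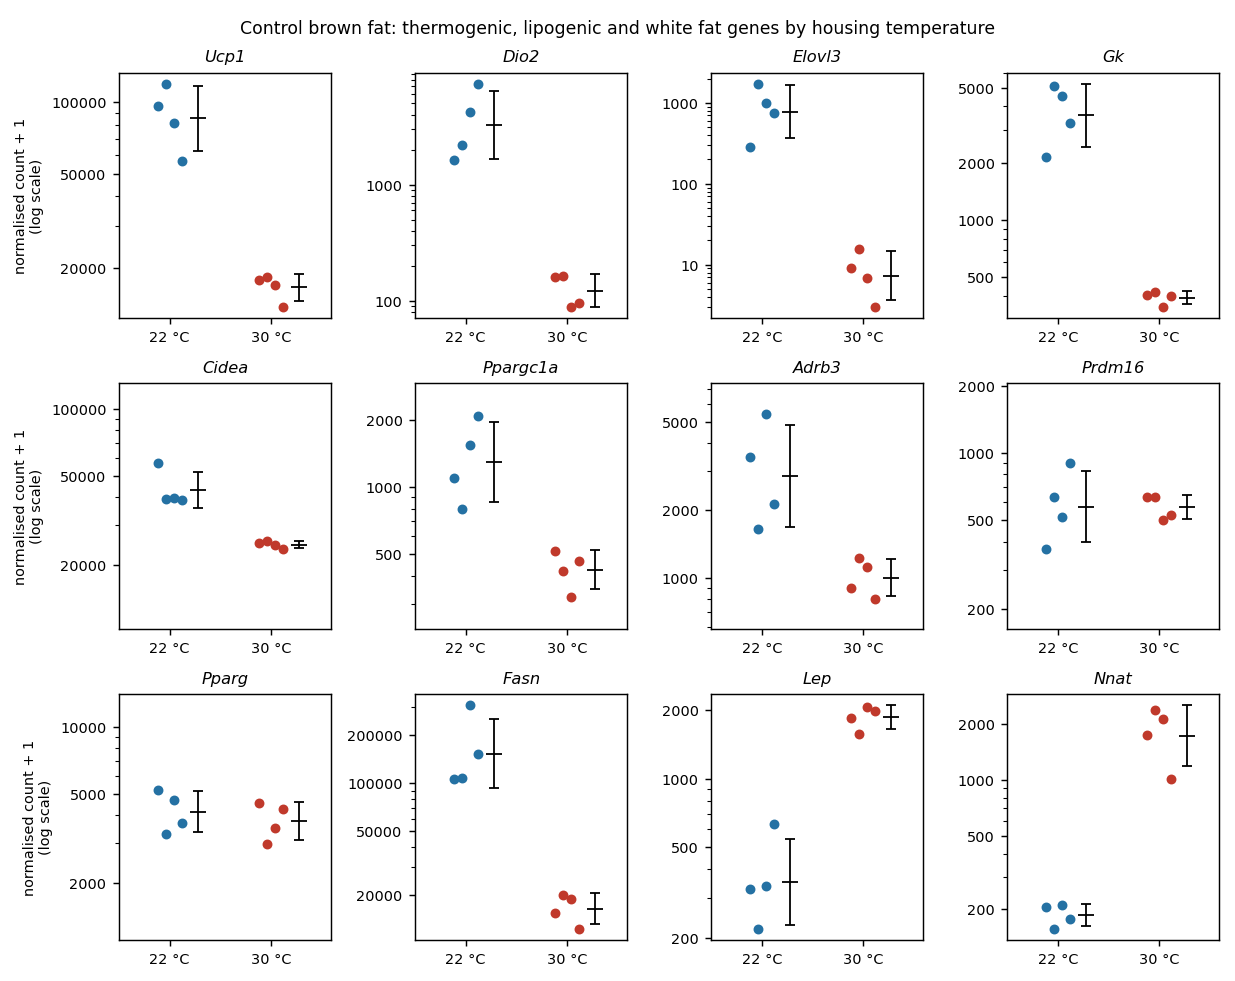
Normalised count + 1 (log scale) of 12 genes in the 4 control libraries at 22 °C (blue) and the 4 at 30 °C (red), with the mean and SD on the log scale in black beside them. The groups are apart for Ucp1, Dio2, Elovl3, Gk, Cidea, Ppargc1a, Adrb3 and Fasn (all lower at 30 °C) and for Lep and Nnat (higher), and overlap for Prdm16 and Pparg.

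Regulators of the brown adipocyte programme were mixed. Of 37 tested, 10 were lower and 3 higher, with a median of -0.14. With equal totals this became 12 higher and 6 lower (median 0.26), and under quantile normalization 6 and 7 (0.01). Ppargc1a, the coactivator that drives mitochondrial biogenesis, fell from 1092, 796, 1537 and 2077 to 515, 420.3, 322 and 465 (log2 difference -1.60, SE 0.37, limma adjusted p = 0.00229). Esrra, the nuclear receptor that acts with it on oxidative genes, fell from 2790.3, 3302, 2934 and 2724 to 1496, 1524, 1702 and 1756 (log2 difference -0.86, SE 0.14, limma adjusted p = 0.000183). Nr1h3, the oxysterol receptor LXR alpha (-1.24), and Foxo1, a transcription factor restrained by insulin (-1.02), fell too (limma adjusted p = 1.48e-06 and 0.000491). Neither Prdm16, a lineage factor that holds brown identity, nor Pparg passed. Prdm16 was 369.8, 633, 516 and 894 at 22 °C and 632, 633, 499 and 523 at 30 °C, with overlapping groups (log2 difference -0.01, SE 0.20, limma adjusted p = 0.964). Pparg, the master regulator of fat cells, stood at 5208, 3297, 4684 and 3710.4 and 4547, 2974, 3516 and 4256 (log2 difference -0.14, SE 0.16, limma adjusted p = 0.492). Ppara, a receptor that drives fatty acid oxidation genes, had a difference of 0.28 (limma adjusted p = 0.0741), which passed without cool library 1 (0.0374) or warm library 3 (0.0186) and with equal totals (1.63e-04). A p that misses the threshold does not show equal levels: the SE of 0.20 for Prdm16 allows a change in either direction. Among the higher regulators, Ebf1, a factor of fat cell commitment, went from 473, 711, 597 and 506 to 1231, 820.4, 1206 and 1491 (log2 difference 1.04, SE 0.16, limma adjusted p = 0.000124), but in the Cre-labelled libraries its difference was 0.13 (adjusted p = 0.587, limma). Bcl6, the repressor this mouse line was made to remove, was 916, 799, 764 and 1838 at 22 °C and 2340.4, 2266, 1763 and 1020.1 at 30 °C. Its groups overlapped, with cool library 4 above warm libraries 3 and 4, and its call (log2 difference 0.80, SE 0.27, limma adjusted p = 0.0253) was lost without cool library 1, 2 or 3, without warm library 1 or 2, in the 8 controls alone and with the muscle covariate (adjusted p = 0.0547 to 0.167, limma).

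The signal that activates the depot changed member by member. Of 50 adrenergic and cAMP genes, 16 were lower and 9 higher, with a median of -0.04 (23 higher and 9 lower with equal totals, median 0.35; 10 and 12 under quantile normalization, 0.07). Adrb3, the beta3 receptor typical of adipocytes, fell from 3472, 1656, 5408 and 2145 to 900.3, 1226, 1121 and 806 (log2 difference -1.52, SE 0.31, limma adjusted p = 0.0011). Adra1a, an alpha1 receptor, had a difference of -0.98 (limma adjusted p = 0.0118, 0.0786 with equal totals and 0.0684 with the muscle covariate), while its relative Adra1d rose from 149, 127, 132 and 124 to 256, 311, 242 and 306 (log2 difference 1.06, SE 0.12, limma adjusted p = 7.64e-06). Adcy3, an adenylyl cyclase that makes cAMP, fell from 3041, 7078, 5250.1 and 4683 to 1175, 1494, 898 and 1274, a 4.14-fold lower mean (log2 difference -2.01, SE 0.24, limma adjusted p = 8.93e-06), and Adcy10, a soluble cyclase, fell from 17.4, 97.1, 116 and 51.4 to 1.8, 3.73, 7.03 and 2.01 (limma adjusted p = 3.62e-05). Prkar2b, the regulatory subunit of protein kinase A in fat, fell by 0.99. Named after their values were seen, the beta1 receptor Adrb1 fell (-1.60, limma adjusted p = 0.000679), and Pkia, an inhibitor of protein kinase A that skeletal muscle also expresses, rose from 12.2, 21.4, 54.1 and 32.5 to 279, 268, 226 and 338 (adjusted p = 7.69e-05). Adrb1 and Adrb3 were thus lower and Pkia higher, beside the higher muscle and stromal markers of the warm libraries, whose part in it was not tested.

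Lipid synthesis had the most negative median of the lists as deposited and with equal totals. Under quantile normalization the median of mitochondrial ribosomal proteins was lower (-0.59 against -0.55). Active brown fat makes fatty acids while it burns them, and the list holds the enzymes that turn citrate into triglyceride. Of 38 tested, 26 were lower and 3 higher (median -1.03; 22 lower, median -0.64, with equal totals; 19 lower under quantile normalization and 26 with the muscle covariate). Fasn, fatty acid synthase, fell from 107051, 108272, 309573 and 153988 to 15333, 19938, 18862 and 12214, a mean 10.2 times lower (log2 difference -3.23, SE 0.50, limma adjusted p = 0.000111), with cool library 3 the highest. The listed genes together took 6.36 to 12.4% of the library total at 22 °C and 2.64 to 3.35% at 30 °C. Acly, which splits citrate into acetyl-CoA, fell from 10394, 11893, 27531 and 14059 to 5160.4, 6455, 6374 and 4768 (log2 difference -1.39, SE 0.41, limma adjusted p = 0.0111; adjusted p = 0.084 under quantile normalization). Elovl6, the elongase that follows Fasn, had a difference of -2.79, Agpat2, an acyltransferase of triglyceride synthesis, -2.52, and Gpat4, which starts that pathway, -1.43 (limma adjusted p = 1.71e-05, 5.09e-07 and 2.19e-06). The desaturase Scd1, named after its values were seen, fell from 454014, 221830, 751660 and 411191 to 63897, 59489.9, 71909 and 42255. Of the factors that drive these genes, Srebf1 was 4396, 4669, 4965 and 5248 at 22 °C and 2988, 2900.2, 2888 and 3534 at 30 °C (log2 difference -0.65, SE 0.25, limma adjusted p = 0.0415). Its call was lost without any 1 control library except warm library 4 (limma adjusted p = 0.0518 to 0.0862), with equal totals (0.423) and under quantile normalization (0.449). Mlxipl, the carbohydrate sensor ChREBP, overlapped between the groups (-0.08, limma adjusted p = 0.76). The values sum all transcripts of a gene, so forms of Mlxipl cannot be told apart. In the cholesterol pathway 11 of 24 were lower and 1 higher (median -0.43; 5 lower with equal totals, median -0.04), led by Pmvk (-1.48) and Acat2 (-0.65), early enzymes of the route (limma adjusted p = 6.75e-05 and 6.77e-05).

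Uptake, storage and release of fatty acids fell in 23 of 37 genes and rose in 2 (median -0.64; 17 lower and 9 higher with equal totals, 16 and 10 under quantile normalization). Acsl5, an acyl-CoA synthetase, fell from 3292, 4836, 6116 and 4255 to 1081, 1039.99, 1017 and 1030.5 (log2 difference -2.11, SE 0.16, limma adjusted p = 2.06e-07). Lpl, which frees fatty acids from lipoproteins in the vessel, fell from 37733, 67370.3, 62647 and 65297 to 30909, 37037, 25078 and 29726 (log2 difference -0.90, SE 0.19, limma adjusted p = 0.0014), with cool library 1 far below the other cool ones and close to the warm group. Abhd5, the coactivator of the lipase ATGL, had a difference of -1.62 and Cidec, a lipid droplet protein, -1.01 (limma adjusted p = 3.19e-06 and 4.27e-06). Acsl1 (-1.40) and Fabp4 (-0.97), the main synthetase and fatty acid carrier of adipocytes, fell with them. Under quantile normalization Lpl and Fabp4 did not pass (limma adjusted p = 0.409 and 0.757). Angptl4, an inhibitor of LPL named after its values were seen, rose from 5529.6, 2085, 3679 and 2869 to 6658, 8611, 6741 and 11540.3 (log2 difference 1.30, SE 0.25, limma adjusted p = 0.000603). Both the lipase and its inhibitor were therefore past the threshold, in opposite directions.

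Genes of mitochondrial fat burning were lower in most members as deposited. They were lower in fewer members under other scalings, where the count lower over all genes differed too. Of 37 fatty acid oxidation genes, 31 were lower and 0 higher (median -0.75). The background was 22.7% lower. With equal totals 24 were lower and 3 higher, where 1161 of the 13176 genes tested were lower. Under quantile normalization 17 were lower and 1 higher (median -0.22), where 2791 of all genes tested were lower. Cpt2, which rebuilds acyl-CoA inside the mitochondrion, fell from 8145, 8897, 8996 and 7123 to 3049, 3383, 2897 and 2993 (log2 difference -1.42, SE 0.10, limma adjusted p = 1.49e-07). Slc25a20, the carnitine carrier, fell from 11209, 10975, 10195 and 8556 to 4140.1, 4506, 3630.1 and 3876 (log2 difference -1.34, SE 0.12, limma adjusted p = 7.51e-07). Both were lower in every warm library by well over the spread of either group. Acaa1b, a peroxisomal thiolase, fell from 992, 1518, 1198 and 1242 to 151, 161, 187 and 153 (limma adjusted p = 1.32e-06). Acot1, a cytosolic thioesterase, was 33.1-fold lower (limma adjusted p = 4.27e-06), but it has a near-identical copy whose reads the authors' counting could divide. With the muscle covariate 29 of the list stayed lower, and in the Cre-labelled libraries the median was -0.77.

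Pyruvate entry and the citric acid cycle had 25 of 32 lower and 1 higher (median -0.64; 15 lower with equal totals, 10 lower and 3 higher under quantile normalization, median -0.11, and 18 with the muscle covariate). Mpc1 and Mpc2 form the mitochondrial pyruvate carrier: Mpc1 fell from 16163, 12249.8, 17700.2 and 12622 to 4438, 4691, 4309.8 and 4272 (log2 difference -1.71, SE 0.17, limma adjusted p = 1.87e-06) and Mpc2 from 10623, 7231, 7014 and 5992 to 1984, 1902, 2248 and 1888 (log2 difference -1.91, SE 0.20, limma adjusted p = 2.38e-06). Pdhb and Pdhx, parts of pyruvate dehydrogenase, had differences of -1.42 and -1.21 (limma adjusted p = 3.04e-05 and 5.42e-06). Glycolysis and glucose uptake were mixed, with 16 of 32 lower and 5 higher (median -0.40; 13 higher and 12 lower with equal totals, 3 and 10 under quantile normalization, median 0.01; 2 or 3 higher without any 1 control library except cool library 3, and without Cre-labelled cool library 4). Ldha, lactate dehydrogenase A, fell from 28396, 27410.2, 28712 and 21341 to 8122, 8942, 10775 and 7894 (log2 difference -1.57, SE 0.23, limma adjusted p = 6.02e-05). Slc2a4, the insulin-sensitive glucose transporter GLUT4, overlapped between the groups (-0.14, limma adjusted p = 0.557). Aldoc, an aldolase, rose from 66.5, 16, 26.1 and 22.7 to 128, 136, 136 and 111 (log2 difference 2.13, SE 0.37, limma adjusted p = 0.000267). Among the 5 higher genes Eno3 and Pgam2, named after their values were seen, are also on the muscle list. Their calls were lost without any 1 control library except cool library 3 (limma adjusted p = 0.0584 to 0.149). Glycogen genes had 8 of 22 lower and 3 higher (median -0.30; 8 higher and 2 lower with equal totals, median 0.10, and 4 and 3 under quantile normalization; 5 lower without cool library 3), and Gys2, glycogen synthase 2, went down from 708, 1560.3, 1181 and 1175 to 454, 503, 419 and 414 (log2 difference -1.32, SE 0.21, limma adjusted p = 0.000128). Enzymes of branched-chain amino acid and ketone breakdown, another fuel of active brown fat, were lower in 20 of 27 and higher in 0 (median -0.55). With equal totals 11 were lower and 4 higher (median -0.16), and under quantile normalization 9 and 4 (-0.17). Mccc2 and Bckdha, enzymes of leucine and branched-chain keto acid breakdown, had differences of -0.91 and -0.94 (limma adjusted p = 1.99e-05 and 2.16e-05).

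Most nuclear genes of the respiratory chain were lower as deposited, and fewer under other scalings. Over all genes tested the count lower was 2987 as deposited, 1161 with equal totals and 2791 under quantile normalization. No mitochondrially encoded gene is in the table, so the parts made inside the organelle were not measured. Respiratory complex I had 32 of 37 subunits lower and 0 higher (median -0.81), complexes II and III 14 of 14 (-0.84), complex IV 12 of 16 lower and 2 higher (-0.71), and ATP synthase 14 of 18 (-0.70). With equal totals the counts lower were 21, 11, 7 and 7 and the medians stayed negative (-0.41, -0.44, -0.31 and -0.30). Under quantile normalization they were 20, 9, 5 and 5, with medians of -0.38, -0.34, -0.25 and -0.21. With the muscle covariate the counts lower were 26, 12, 8 and 7. Ndufs8, a core subunit of complex I, fell from 7803, 5808, 5290.1 and 4931 to 2950.3, 2802, 3203 and 3049 (log2 difference -0.97, SE 0.14, limma adjusted p = 5.58e-05). Uqcrfs1, the iron-sulfur protein of complex III, fell from 18722, 15635, 15188 and 13999.8 to 6938, 7501, 7155 and 6814 (log2 difference -1.15, SE 0.13, limma adjusted p = 6.43e-06). Cox5a of complex IV fell from 21396, 14157, 14575 and 13903 to 7739, 8071, 8055 and 7450.1 (log2 difference -1.01, SE 0.16, limma adjusted p = 0.000106), and here cool library 1 stood above the other 3. The 2 higher members of the complex IV list, named after their values were seen, were Cox6a2, the muscle form of a subunit (0, 1.34, 12.8 and 4.17 at 22 °C and 42.6, 37, 33.1 and 25.9 at 30 °C), which is also on the muscle list, and Cox6b2 (0.79). Both lost their call when some single libraries were left out (cool library 3 or warm library 3 for Cox6b2, any but cool library 3 for Cox6a2; limma adjusted p = 0.0505 to 0.12). Without cool library 1, the medians were -0.62, -0.71, -0.50 and -0.52, with 29, 14, 11 and 12 lower.

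Mitochondrial ribosomal proteins, which translate the organelle's own messages, were lower in 72 of 78 and higher in 0 (median -0.72; 46 lower with equal totals, 66 under quantile normalization, 64 with the muscle covariate). Mrpl46 fell from 564, 617, 522 and 485 to 235, 252, 267 and 255 (log2 difference -1.11, SE 0.12, limma adjusted p = 3.34e-06), and Mrps18a from 1431, 1341, 1103 and 1112 to 662, 594, 579 and 613 (log2 difference -1.02, SE 0.11, limma adjusted p = 5.03e-06). Import, dynamics and turnover genes were lower in 33 of 41 (median -0.77; 23 lower with equal totals), among them Hspe1, the chaperonin that folds imported proteins (-1.41), and Timm8b of the inner membrane import route (-1.24; limma adjusted p = 2.4e-06 and 1.34e-05). Carriers of the SLC25 family were mixed, with 17 of 40 lower and 4 higher (median -0.35; 10 higher and 11 lower with equal totals, median 0.04; the count higher was 1 or 2 without any 1 control library except cool library 1, and without Cre-labelled warm library 2 or 4). Slc25a3, the phosphate carrier, fell from 6235, 5759.7, 6178 and 5182 to 2549, 2722, 2724 and 2628 (log2 difference -1.13, SE 0.11, limma adjusted p = 1.77e-06). By contrast the cytosolic ribosome had 14 of 82 lower and none higher (median -0.34; 3 lower with equal totals, median 0.06, 4 under quantile normalization, 0.02, and 4 with the muscle covariate), a share below the 22.7% background, and the count fell to 6 without cool library 1, 7 without warm library 1, 8 without warm library 3 and 9 without warm library 4, and was 27 without Cre-labelled cool library 2. Many ribosomal proteins have processed copies in the genome, so their values are uncertain.

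Promoters of 4 of these genes are shown because they hold short motifs of NRF1 and ETS factors, known regulators of nuclear genes for mitochondria. The 250 bases before each start were searched for 16 motifs on both strands in RefSeq sequence of GRCm38.p6, and 10480 of the 13176 tested genes had an entry. Shares of promoters are shares of genes: a gene counted if any of its starts matched, so genes with several starts had more chances. In all, 27025 genes had 32851 starts. The NRF1 palindrome (GCGCA, any base, GCGC) was found in 4.23% of all promoters, 9.07% of those tested, 11.6% of genes lower at 30 °C, 5.33% of genes higher and 9.53% of genes not past the threshold. It was in 5 of 16 ATP synthase promoters (31.2%) and 6 of 33 of complex I (18.2%). The ETS core CCGGAAG, read by factors such as GABPA, was found in 7.83% of all promoters, 20.5% of lower genes, 9.05% of higher genes and 15.6% of the rest, and in 18 of 69 mitochondrial ribosomal promoters (26.1%) and 14 of 37 of the import list (37.8%). It was also in 30.6% of the promoters of cytosolic ribosomal proteins, of which 14 of 82 were lower. Windows of 120 bases are printed 5′ to 3′ on the gene's strand, motif in capitals: Sdhd (chr9:50603864-50603983, minus strand), a subunit of complex II, Cox6a1 (chr5:115349056-115349175, minus strand) of complex IV, with 2 NRF1 matches, Mrps18a (chr17:46110884-46111003, plus strand) and Mrpl27 (chr11:94653671-94653790, plus strand) of the mitochondrial ribosome, with the ETS core.

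Sdhd: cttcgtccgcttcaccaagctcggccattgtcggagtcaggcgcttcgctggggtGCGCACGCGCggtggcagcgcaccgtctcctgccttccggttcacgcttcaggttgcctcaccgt

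Cox6a1: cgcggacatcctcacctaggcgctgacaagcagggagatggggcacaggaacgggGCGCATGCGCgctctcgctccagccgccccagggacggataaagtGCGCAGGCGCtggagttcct

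Mrps18a: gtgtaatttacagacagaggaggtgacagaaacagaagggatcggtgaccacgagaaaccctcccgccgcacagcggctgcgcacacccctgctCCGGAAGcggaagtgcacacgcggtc

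Mrpl27: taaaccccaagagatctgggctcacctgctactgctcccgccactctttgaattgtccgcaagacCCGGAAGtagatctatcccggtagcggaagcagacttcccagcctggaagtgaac

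Sdhd fell from 19302, 15450, 15040.2 and 14233 to 7958, 8291, 7457 and 7516 (log2 difference -1.03, SE 0.14, limma adjusted p = 4.18e-05), Cox6a1 from 24359, 14667, 15805 and 14880.5 to 7439, 6804, 8485 and 8034 (log2 difference -1.15, SE 0.18, limma adjusted p = 0.000124) and Mrpl27 by 0.92 on the log2 scale. Mrpl27 was named for its sequence after its values were seen, and all 4 genes printed were drawn only from list members past the threshold. A match describes these letters in this window only, and the Sdhd window also overlaps Timm8b (chr9:50603901-50605320), a gene of the import list. The cAMP response element TGACGTCA was found in 3.24% of lower genes, 1.90% of higher ones and 3.31% of the rest (1.77% of all promoters), the estrogen-related receptor half-site AAGGTCA in 3.86, 3.6 and 3.5% (4.70% of all), and the sterol element TCACNCCAC in 1.27, 1.44 and 1.09% (1.22% of all).

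Lists of protein quality and stress differed from one another. Proteasome subunits and their regulators were lower in 35 of 40 and higher in 0 (median -0.58; 17 lower and 4 higher with equal totals, 28 lower under quantile normalization and 31 with the muscle covariate). Psmd6, a subunit of the regulatory particle, fell from 955, 905, 949 and 785 to 507, 569, 413 and 431 (log2 difference -0.91, SE 0.13, limma adjusted p = 4.37e-05). Heat shock genes had 8 of 21 lower and 2 higher, but between 3 (without warm library 1) and 13 (without cool library 2) lower when 1 library was left out, and 4 without cool library 3 or 4 or warm library 3 or 4. With equal totals the counts turned to 5 higher and 2 lower. Quantile normalization gave 1 and 4. The Cre-labelled libraries had 1 and 1 (median -0.01). Hspb8, a small heat shock protein that serves autophagy, fell from 459.7, 735, 822 and 759 to 136, 146, 141 and 209 (log2 difference -2.11, SE 0.23, limma adjusted p = 3.63e-06), while Cryab, a small heat shock protein abundant in muscle, rose from 361, 149, 241 and 185 to 918, 948, 1091 and 1045 (log2 difference 2.17, SE 0.23, limma adjusted p = 3.48e-06), beside the higher muscle markers. The antioxidant list had 18 of 36 lower and 3 higher (median -0.47; 10 and 9 with equal totals, 12 and 5 under quantile normalization). Gsta4, which detoxifies lipid peroxides, fell from 1091, 837, 859 and 754 to 361, 399.8, 323 and 362 (log2 difference -1.28, SE 0.13, limma adjusted p = 1.87e-06), and the metallothioneins Mt1 and Mt2, small zinc-binding proteins, had differences of -1.52 and -1.63 (limma adjusted p = 4.58e-06 and 2.57e-05). Ucp2, a relative of Ucp1 found in many immune cells, rose from 804, 668, 548 and 752 to 2091, 2810.3, 2086 and 1957 (log2 difference 1.69, SE 0.14, limma adjusted p = 4.51e-07). Autophagy and lysosome genes were lower in 15 of 29 (median -0.28). With equal totals 6 were higher and 4 lower (median 0.11) and under quantile normalization 7 lower, and Lamp1, a lysosomal membrane protein, was at -0.75 (limma adjusted p = 5.49e-05). The unfolded protein and integrated stress list had 9 of 30 higher and 8 lower as deposited, 16 and 3 with equal totals (median 0.38) and 10 and 5 under quantile normalization. Phgdh, the first enzyme of serine synthesis, rose from 352, 282, 172 and 269 to 879, 1043, 1007 and 971 (log2 difference 1.90, SE 0.19, limma adjusted p = 1.8e-06), and Dnajb9, a chaperone of the endoplasmic reticulum, stood at -1.38 (limma adjusted p = 0.000126).

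Some genes of white fat rose. Of 16 white fat enriched genes tested, 7 were higher and 5 lower (3 lower without cool library 2 or 4 or warm library 4), with a median of 0.27 (3 lower with equal totals and 3 under quantile normalization). Lep, the satiety hormone leptin, rose from 328, 219, 339 and 630.02 to 1856, 1577, 2079 and 1991 (log2 difference 2.40, SE 0.32, limma adjusted p = 2.88e-05). Nnat, an imprinted gene for a small membrane protein, rose from 206, 157, 209 and 177 to 1749, 2375, 2116 and 1012, a mean 9.69 times higher (log2 difference 3.21, SE 0.30, limma adjusted p = 9.58e-07), and Mest, another imprinted gene that is tied to fat cell growth, from 19.6, 28.9, 5.97 and 21.4 to 174, 119.6, 164 and 93.5 (log2 difference 2.94, SE 0.40, limma adjusted p = 3.35e-05). In these 3 genes every warm value lay above every cool one. Npr3, the clearance receptor for natriuretic peptides, had a difference of 1.36 (limma adjusted p = 7.36e-07). Rbp4, the retinol carrier, went the other way, from 1446, 1348, 1604 and 1535 to 276, 328, 279.6 and 171 (log2 difference -2.52, SE 0.30, limma adjusted p = 9.16e-06). Among secreted signals 8 of 31 were higher and 4 lower (median 0.35). With equal totals 17 were higher and 2 lower (median 0.74). Under quantile normalization the counts were 9 and 6, and without cool library 1 they were 12 and 3. Adm, the vasodilator adrenomedullin, rose from 11.9, 19.1, 11.4 and 12.9 to 94.6, 56.3, 115 and 72.2 (log2 difference 2.51, SE 0.29, limma adjusted p = 6.88e-06), Nrg4, a factor that brown fat sends to liver and nerve, fell from 3218, 2438, 3523 and 2947 to 1846, 2207, 1699 and 1649 (log2 difference -0.71, SE 0.14, limma adjusted p = 0.000618), and Vegfa, a vessel growth factor, did not pass (0.32, limma adjusted p = 0.124, 0.00426 with equal totals). Fgf21, a hormone that brown fat can release, was below the filter, with values between 0 and 10.5 in the 8 libraries. Insulin and IGF genes were split, 7 of 29 higher and 8 lower (median -0.17; 12 higher and 3 lower with equal totals, median 0.23, and 5 and 4 under quantile normalization; 5 lower without cool library 3 or 4, and 4 higher and 5 lower without warm library 3), with Igfbp3, an IGF carrier, at 1.27 and the insulin receptor Insr at -0.57 (limma adjusted p = 3.14e-06 and 0.000439, the latter 0.228 with equal totals).

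The creatine and calcium cycles, which can use ATP for heat without UCP1, showed no common fall. Of 19 tested, 5 were higher and 2 lower (median 0.19, -0.15 with the muscle covariate; 9 higher and 1 lower with equal totals, 3 and 3 under quantile normalization; 3 higher without warm library 3, and 8 without Cre-labelled warm library 1, which enters through the shared spread). Ckb, the creatine kinase of the creatine cycle, rose from 961, 1559, 439.96 and 714 to 1992, 2282, 2263 and 2388, with no overlap (log2 difference 1.43, SE 0.28, limma adjusted p = 0.000677; 1.56 with the muscle covariate), but the Cre-labelled difference was 0.14 (limma adjusted p = 0.731). Slc6a8, the creatine transporter, rose from 507, 402, 426 and 453 to 867, 959, 854 and 1176 (log2 difference 1.10, SE 0.14, limma adjusted p = 1.57e-05). Letm1, a cation exchanger of the inner membrane, fell from 4600.4, 6805, 5917 and 4868 to 1665, 1816, 1604 and 1565 (log2 difference -1.72, SE 0.13, limma adjusted p = 1.58e-07). Ryr1, a calcium release channel named after its values were seen, is on the muscle list, and its call (3.69, limma adjusted p = 0.0436) was lost without any 1 control library except cool library 3 (0.0671 to 0.114).

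Proliferation genes rose in the warm libraries. Of 33 cell cycle genes, 23 were higher and 3 lower, with a median of 1.14 (15 higher and 0.65 under quantile normalization, 21 higher with the muscle covariate). Mki67, the proliferation antigen Ki-67, rose from 35.3, 18.6, 24.9 and 10.8 to 166, 150.2, 109 and 95.3 (log2 difference 2.57, SE 0.30, limma adjusted p = 1.01e-05). Top2a, the topoisomerase of dividing cells, rose from 6.96, 6.34, 11 and 18.5 to 103, 89.5, 63.4 and 62.1 (log2 difference 2.86, SE 0.36, limma adjusted p = 1.91e-05). Ccnd1, cyclin D1, rose from 136, 269, 173 and 108 to 594, 426, 633 and 526 (log2 difference 1.73, SE 0.24, limma adjusted p = 3.83e-05), though its difference in the Cre-labelled libraries was 0.35 (limma adjusted p = 0.277). Every warm value of these 3 lay above every cool value. The levels of Mki67 and Top2a were low at 22 °C, so log2 differences understate their ratios.

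Markers of immune cells rose together. Macrophage markers were higher in 20 of 22 and lower in 0 (median 1.43; 20 higher with equal totals, 20 under quantile normalization and 20 with the muscle covariate), and the list took 0.048 to 0.062% of the library total at 30 °C against 0.012 to 0.020% at 22 °C. Csf1r, the receptor that keeps macrophages alive, rose from 204, 152, 146 and 157 to 385, 346, 338 and 382 (log2 difference 1.14, SE 0.14, limma adjusted p = 1.18e-05). Fcgr1, an antibody receptor, rose from 4.57, 1.19, 5.33 and 8.25 to 37.7, 22.4, 39.2 and 24.2 (log2 difference 2.58, SE 0.42, limma adjusted p = 0.000163), and Itgam, the integrin CD11b, had a difference of 2.09 (limma adjusted p = 7.47e-05). Named after their values were seen, Gpnmb rose from 11.9, 14.7, 12 and 12.7 to 210.3, 105, 171 and 107 and Trem2, a lipid receptor, from 8.23, 2.73, 4.8 and 0.839 to 33.4, 17.3, 33.5 and 29.7 (limma adjusted p = 0.000935 and 0.00189). Both mark macrophages that take up lipid. Lymphocyte markers were higher in 7 of 11 (2 higher and 2 lower under quantile normalization, 4 higher with the muscle covariate) at low levels: Cd4 was 6.86, 12.8, 12.5 and 12.6 and 30.6, 33.1, 32.4 and 19.7 (log2 difference 1.31, SE 0.28, limma adjusted p = 0.00143; adjusted p = 0.0911 under quantile normalization). Kit, a receptor of mast cells and other cells, had a difference of 1.57, and Csf3r, a receptor of neutrophils, 1.88 (limma adjusted p = 0.000281 and 0.000265). Complement genes were higher in 11 of 18, while C3, the central component that adipocytes also make, fell from 7796, 12168, 12595 and 11743 to 4069, 4563, 3036 and 3572 (log2 difference -1.53, SE 0.22, limma adjusted p = 6.1e-05). The share of RNA from immune cells and the level within a cell cannot be told apart here.

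**Figure D3:**
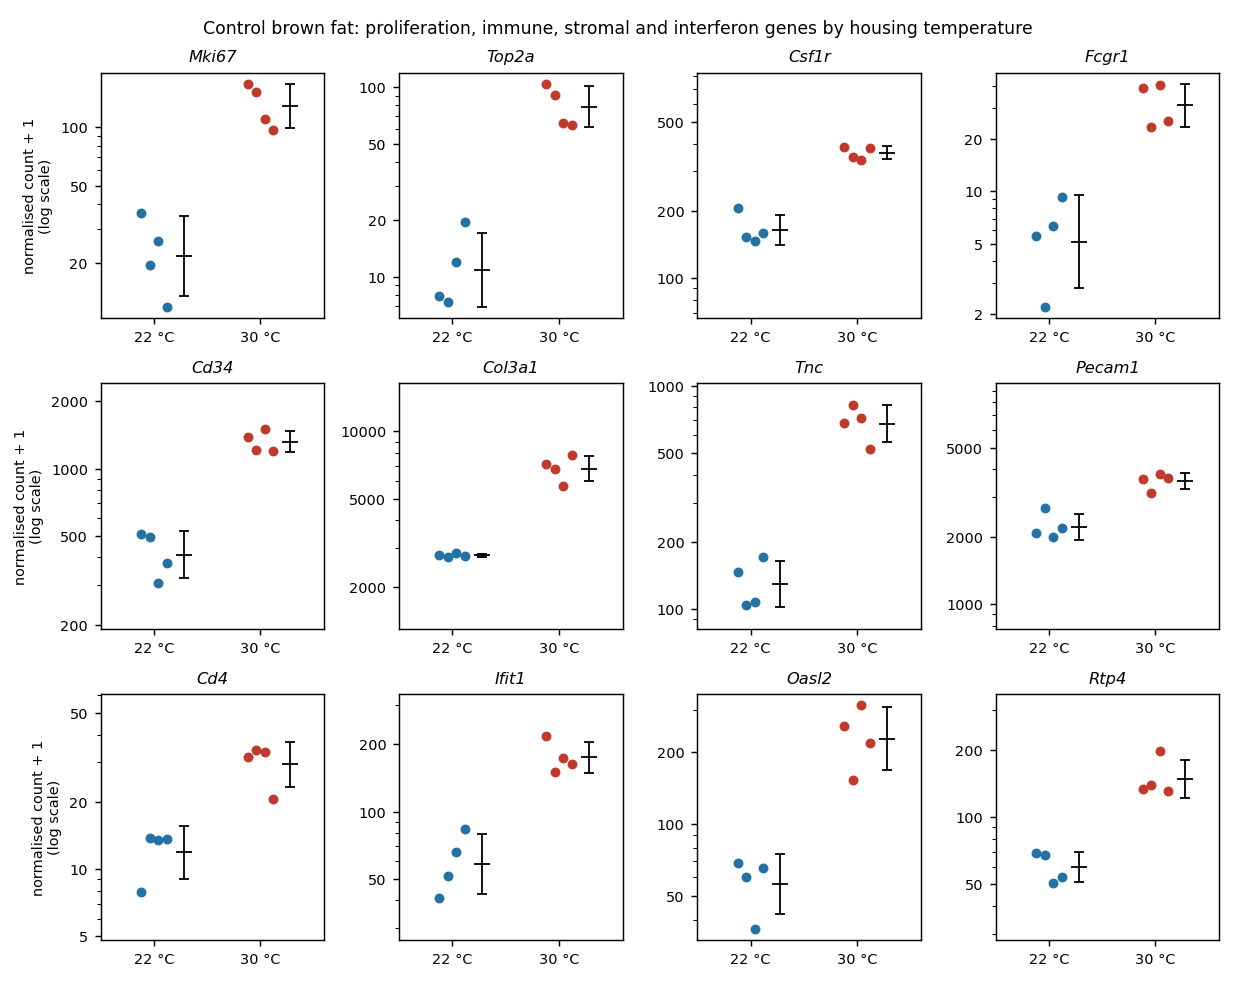
Normalised count + 1 (log scale) of 12 genes of proliferation, macrophages, progenitors, matrix, endothelium, T cells and the interferon response, by control library at 22 °C (blue) and 30 °C (red), with mean and SD on the log scale in black. In all 12 the 4 warm libraries lie above the 4 cool ones.

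The interferon response list had 20 of 26 members higher and 0 lower (median 1.01; 23 with equal totals, 20 under quantile normalization, 18 with the muscle covariate). Ifit1, which binds foreign RNA, rose from 39.9, 50.6, 65.1 and 82.4 to 218, 149.6, 173 and 162 (log2 difference 1.58, SE 0.20, limma adjusted p = 1.58e-05). Oasl2, a relative of the RNA-sensing OAS enzymes, rose from 67.6, 59.2, 35.7 and 64.5 to 256, 152, 313 and 218 (log2 difference 2.02, SE 0.27, limma adjusted p = 2.71e-05), and Rtp4 from 68, 66.7, 49.8 and 52.8 to 133, 138, 196 and 129.7 (log2 difference 1.31, SE 0.18, limma adjusted p = 3.23e-05). Of 19 list members with a promoter in the table, 10 (52.6%) held the interferon-stimulated response element (GAAA, any 2 bases, GAAA), against 3.46% of all promoters, 4.44% of all higher genes and 2.91% of all lower genes. The sequences show that shared letter pattern in 4 members (capitals, some overlapping): Ifit1 (chr19:34640730-34640849, plus strand), Ifit3 (chr19:34583318-34583437, plus strand), Oas1a (chr5:120907526-120907645, minus strand) and Bst2 (chr8:71537538-71537657, minus strand). On the plus strand genes shown it reads as its reverse complement.

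Ifit1: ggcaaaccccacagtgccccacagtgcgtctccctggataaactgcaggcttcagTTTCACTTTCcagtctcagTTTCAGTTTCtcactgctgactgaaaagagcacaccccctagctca

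Ifit3: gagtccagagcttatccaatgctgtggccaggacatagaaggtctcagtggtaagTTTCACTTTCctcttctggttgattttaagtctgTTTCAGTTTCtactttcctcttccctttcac

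Oas1a: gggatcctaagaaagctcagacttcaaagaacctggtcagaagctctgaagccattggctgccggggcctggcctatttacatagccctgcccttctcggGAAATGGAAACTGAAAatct

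Bst2: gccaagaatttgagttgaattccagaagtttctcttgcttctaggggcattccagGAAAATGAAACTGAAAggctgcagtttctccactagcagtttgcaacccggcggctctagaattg

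Ifit3, Oas1a and Bst2, shown for their sequence and chosen after their values were seen, had differences of 1.80, 1.18 and 0.97 (limma adjusted p = 9.12e-05, 0.000164 and 0.000263). The 4 genes printed were drawn only from members past the threshold, of which 20 were higher and 0 lower, so their direction was fixed by the choice. Members of the OAS and IFIT families have close copies whose reads the counting could divide.

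Stroma and vessels rose too. Collagen chains were higher in 19 of 29 and lower in 2 (median 0.86), and other matrix genes higher in 28 of 44 and lower in 3 (median 0.66). Col3a1, a fibrillar collagen of soft tissue, stood at 2789, 2732, 2842 and 2779 at 22 °C and 7108, 6794, 5711 and 7814 at 30 °C (log2 difference 1.29, SE 0.11, limma adjusted p = 5.79e-07), with the cool libraries within a very narrow range. Tnc, tenascin C, a matrix protein of growing or injured tissue, rose from 145, 104, 106 and 169.9 to 680.5, 819, 716 and 519.99, a mean 5.21 times higher (log2 difference 2.39, SE 0.17, limma adjusted p = 1.49e-07). Markers of fat progenitors and fibroblasts were higher in 12 of 16 and lower in none: Cd34 rose from 506, 491, 305 and 377 to 1384, 1212, 1501 and 1200.5 (log2 difference 1.68, SE 0.18, limma adjusted p = 3.01e-06). Endothelial markers were higher in 10 of 18 (median 0.59), with Pecam1, the junction protein CD31, going from 2068, 2678, 1992 and 2179 to 3618, 3147, 3819 and 3642 (log2 difference 0.68, SE 0.12, limma adjusted p = 0.000327). With the muscle covariate the counts higher were 16, 23, 10 and 10. Mural cell markers were higher in 5 of 13 and lower in 1, with 1 or 2 higher without cool library 1 or 3 or warm library 1 or 3, 2 higher and 2 lower with the muscle covariate and 8 higher with equal totals. Schwann cell markers were mixed (1 higher and 1 lower of 9; 5 higher with equal totals), and none of 3 erythrocyte markers passed (limma; 0 of 3 also at an unadjusted p under 0.05). With equal totals, with the muscle covariate and under quantile normalization 1 was higher. Mature adipocyte markers were lower in 7 of 12 (median -0.52; 2 higher and 5 lower with equal totals; 4 and 2 under quantile normalization, median 0.08), and Adipoq overlapped between the groups (-0.18, limma adjusted p = 0.358).

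Clock and early response genes were uneven. Of 18 circadian genes 1 was higher and 2 lower, but 2 higher and 7 lower with the muscle covariate (median -0.38) and 5 and 1 with equal totals. Nr1d1, the repressor REV-ERB alpha that restrains thermogenic genes, rose from 2064, 2055, 1629 and 1849.98 to 3083, 2418, 3452 and 2993 (log2 difference 0.65, SE 0.15, limma adjusted p = 0.00217), but its difference was -0.19 in the Cre-labelled libraries (limma adjusted p = 0.351). Immediate early genes, which respond within minutes to handling as to other stimuli, were higher in 8 of 25 and lower in 2 (4 lower without cool library 2 or warm library 2; 2 higher with the muscle covariate). With equal totals 12 were higher and 2 lower, and in the Cre-labelled libraries 14 were higher and 0 lower (median 1.30). Egr1 was 111, 734, 355 and 254 at 22 °C and 3124, 349.7, 4508 and 4280.2 at 30 °C, so that warm library 2 lay among the cool ones, and the adjusted p of 0.00988 (limma) became 0.052 with the muscle covariate. Myc rose from 114, 63.3, 59.3 and 50.1 to 233, 180.04, 198 and 257 (log2 difference 1.64, SE 0.24, limma adjusted p = 7.32e-05).

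**Figure D4:**
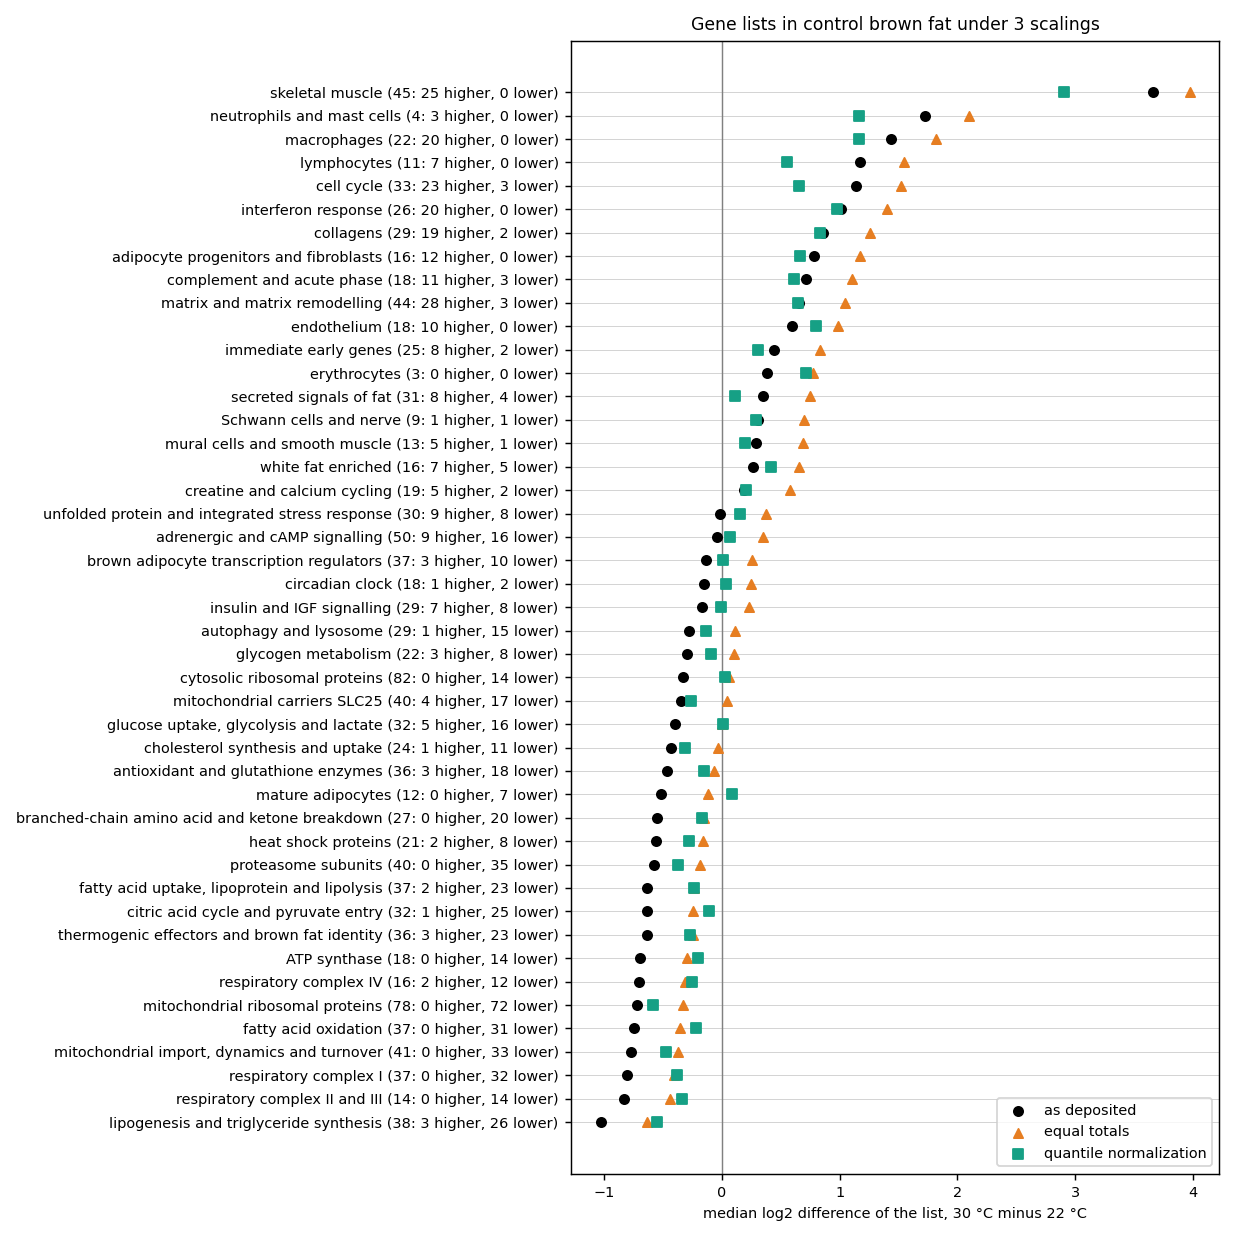
Median log2 difference (30 °C minus 22 °C) of each gene list in the controls as deposited (black), with equal library totals (orange) and under quantile normalization (green), with the number tested, higher and lower in brackets. Respiratory chain, fatty acid oxidation, mitochondrial ribosome and lipogenesis lists lie below 0 under all 3 scalings and macrophage, cell cycle, interferon and collagen lists above 0. Lists with a deposited median between -0.40 and 0 mostly cross 0 with equal totals. That scaling also moved the median of all genes, from 0.04 to 0.43, so crossing 0 does not set these lists apart from other genes.

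The rule that took the 12 highest and 12 lowest genes gave mostly muscle genes at the top. Ttn, Myh7, Tnni2, Myoz1, Xirp2, Mybpc2 and Tnnt3 encode proteins of the sarcomere and its attachments, and none of the 7 passed with the muscle covariate (limma adjusted p = 0.258 to 0.914). All 7 are among the markers that make up the muscle score, so that loss follows from the covariate and is not a test of them. The other 5 were Prnd, Fras1, Adnp, Prss12 and Plekhg6. Fras1, a basement membrane protein, rose from 15.2, 1.04, 8.28 and 9.13 to 187, 212, 190.5 and 227 (log2 difference 4.78, SE 0.47, limma adjusted p = 1.87e-06), Prss12, a serine protease, from 8.07, 4.13, 5.21 and 8.71 to 111, 121, 91.9 and 139.6 (log2 difference 3.99, SE 0.30, limma adjusted p = 1.58e-07), and Plekhg6 from 23.1, 19.8, 8.68 and 25.6 to 281, 227, 332 and 381 (log2 difference 3.99, SE 0.35, limma adjusted p = 7.13e-07). Prnd, a relative of the prion protein, was listed at 0 in 3 cool libraries and at 122, 118, 129 and 59.9 in the warm ones. Adnp, a widely expressed nuclear protein, stood at 613, 12.4, 489 and 508 in the warm libraries and 10.0, 4.98, 10.7 and 8.05 in the cool ones, with warm library 2 close to the cool group, and its call was lost without any 1 control library except that one (limma adjusted p = 0.0531 to 0.0877). At the other end stood Elovl3, Dio2, Fasn, Gk and Acot1, described above, with Fdx1l, Mfsd2a, Gldn, Aspg, St3gal5, Fndc5 and Noct. Mfsd2a, a transporter of lysolipids, fell from 102, 413, 485 and 677 to 5.08, 11.1, 8.29 and 1.01 (log2 difference -5.82, SE 0.79, limma adjusted p = 3.5e-05). Aspg, an asparaginase, fell from 2605, 4237, 4010.5 and 2834 to 234, 201, 255 and 160.1 (log2 difference -3.99, SE 0.28, limma adjusted p = 1.49e-07), and St3gal5, which makes the ganglioside GM3, from 762, 1438, 867 and 628 to 77.7, 117, 52.7 and 69.6 (log2 difference -3.51, SE 0.26, limma adjusted p = 1.57e-07). Noct, nocturnin, a phosphatase with a daily rhythm, had a difference of -3.16 (limma adjusted p = 6.04e-06), and Fndc5, the precursor of irisin, -3.49 (1.24e-05). Fdx1l was listed at 0 in 3 warm libraries and at 144 in the other, and at 374, 146, 245 and 257 in the cool ones, so no fold is given.

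The same temperature comparison in the 8 Cre-labelled libraries shares no sample with that in the controls. There 1978 genes were higher (15.0%) and 2336 lower (17.7%). Of the 3012 genes higher in controls 2845 (94.5%) had the same sign and 1513 were also called higher, and of the 2987 lower genes 2876 (96.3%) and 1926, while 7 and 2 were called in the opposite direction. Over all genes tested 81.9% had the same sign. Ucp1 had a difference of -3.12, Dio2 -3.63, Elovl3 -4.08 and Fasn -2.66, all past the threshold (limma adjusted p = 5.45e-07, 0.000269, 5.58e-05 and 0.000822), and the medians were -0.77 for fatty acid oxidation, -0.86 for complex I, -0.86 for lipogenesis, 1.64 for macrophages, 0.66 for interferon and 0.56 for cell cycle. The median of the muscle markers there was 0.20, against 3.66 in the controls.

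A test of the difference between the 2 comparisons called 58 genes (0.44%), 35 of them (0.266%) with the higher signed difference in controls and 23 (0.175%) with the lower. Ebf1, Ckb, Ccnd1 and Nr1d1, which passed in controls and not in the Cre-labelled libraries, were not among them (interaction adjusted p = 0.118, 0.215, 0.1 and 0.106, limma). In Acsl5 the cool Cre-labelled libraries stood at 1244, 1415, 859 and 1019 and the warm at 777, 824, 787 and 916, a difference of -0.43 against -2.11 in controls (interaction adjusted p = 0.00249, limma). Gys2 fell more in the Cre-labelled libraries (-3.13 against -1.32, interaction adjusted p = 0.00975, limma), where the warm values were 22.8, 27.1, 25 and 26.4. Mt2 (0.45 against -1.63), C3 (0.21 against -1.53) and Slc25a3 (-0.32 against -1.13) fell in the controls and moved less or not past the threshold in the others (interaction adjusted p = 0.0035, 0.0223 and 0.029, limma). Prss12 and Tnc rose more in controls (3.99 against 0.49 and 2.39 against 1.15, interaction adjusted p = 0.000564 and 0.029, limma). The count of such genes ran from 21 without cool control library 3 to 102 without cool control library 1.

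**Figure D5:**
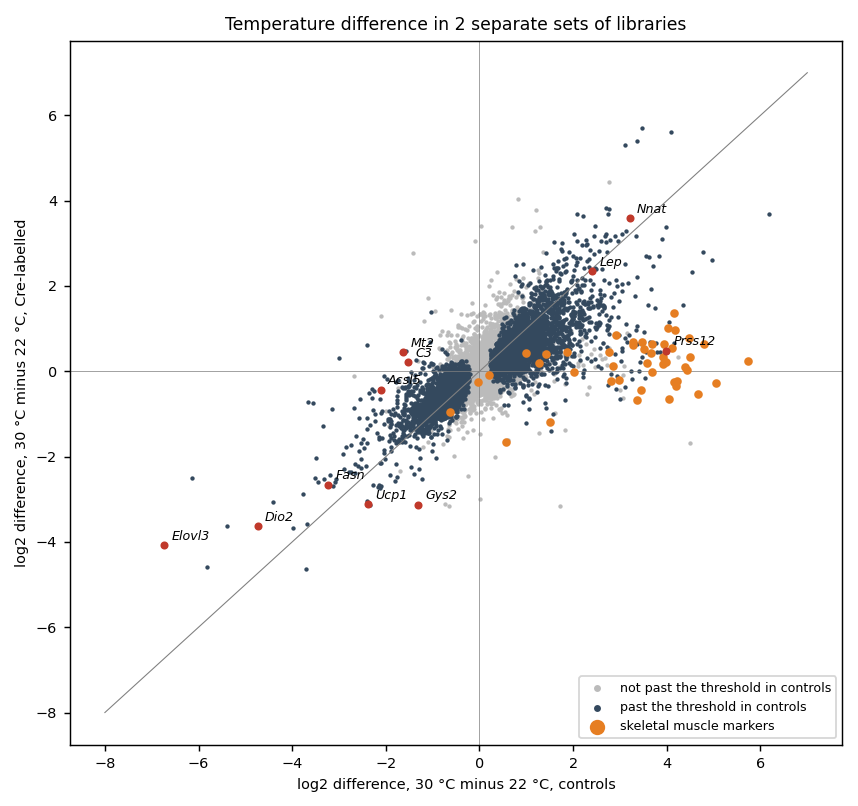
Log2 difference (30 °C minus 22 °C) of each gene tested in the controls (x axis) and in the Cre-labelled libraries (y axis), which share no sample, with genes past the threshold in controls in dark blue, others in grey, and the line of equal values. Most dark points lie in the quadrants of equal sign, while skeletal muscle markers (orange) are high in the controls and near 0 in the Cre-labelled libraries.

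The deposited list of BCL6 peaks comes from control brown fat at 30 °C, 1 of the groups compared here, and holds 3022 peaks, each tied to the gene with the nearest start in the authors' annotation. A peak lay within 10 kb of 7.75% of the genes tested, 6.08% of those higher at 30 °C, 9.74% of those lower and 7.62% of those not past the threshold. In the lists the share was highest for immediate early genes (24%, 6 of 25), ATP synthase (22.2%, 4 of 18), insulin and IGF genes (20.7%, 6 of 29) and the interferon response (19.2%, 5 of 26). For other mitochondrial lists it was 15.6% in the citric acid cycle, 14.6% in import, 13.5% in fatty acid oxidation (5 of 37), 12.5% in complex IV and 10.8% in complex I. It was 7.14% in complexes II and III, 7.69% in mitochondrial ribosomal proteins, 7.5% in SLC25 carriers and 3.7% in branched-chain and ketone breakdown. For macrophage markers it was 0 of 22. These shares are a description without a test.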

How the data were processed

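RNA from whole interscapular brown fat was sequenced as stranded polyA libraries with 75-cycle single reads, per the labels' protocols. The authors deposited a normalised signal value per gene and library (normalised counts, not whole reads), made with kallisto and DESeq2 on mm10 per the submitters' processing notes, which give no version. Reads that match several genes are divided by such counting. The values could not be turned back into reads, so depth is unknown. The authors' peak list gives a peak score, which was not used to rank peaks, and its distances to start sites, with Bowtie2 and HOMER named in the submitters' processing notes. Histone and other chromatin samples were not analysed here. Spreadsheet dates were turned back into 26 gene symbols, 14 entries have no symbol, and no library pair held identical values.

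Log2(value + 1) of the 13176 genes that averaged 10 or more across the 16 RNA libraries was fitted with limma 3.58.1 (R 4.3.3, variance trend) to the 4 groups, with p-values adjusted over all genes (Benjamini-Hochberg) and a threshold of 0.05. A fold change on this scale understates that of low genes. In simulated data with the same groups, 77% of 100 genes changed by a log2 size of 1 and 98% of 100 changed by 2 were recovered, and 6.42% of the 187 called were unchanged genes. All other genes of the 13176 were left unchanged there, with independent normal noise and no shift in scaling. The real comparison called 45.5% of genes, so these rates need not hold for it. Named genes were the 12 highest and 12 lowest called differences (averaging 100 or more in the group where they were higher, no overlap), up to 4 members of each of 36 gene lists and 10 marker lists with the smallest adjusted p, and a fixed set of known genes. Others are marked where they appear. The libraries, lists and members were chosen with earlier results of these data known. Alternatives were other pseudocounts (0.5 and 5), filters, scalings, variance models, a muscle covariate, a replicate block and leaving out each library.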

Additional observations from a re-analysis of the deposited data

Results flagged for a closer look

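Among 288 groups of 4 values of the genes named and those of the muscle score, 23 held 1 library that stood far from the other 3 by Dixon's test at 95%, which chance alone does in about 1 of 20 groups. Cool library 1 was that library in 8 genes. It was high in Cidea (56986), Cox5a (21396), Cox6a1 (24359) and Itgam (26.6), and low in Lpl (37733), Mlxipl (2882), Noct (2104) and Cd4 (6.86).

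Cool library 2 was high in Fgf21 (10.5), Fndc5 (786), Mccc2 (2625) and Prnd (3.28, the others listed at 0). Cool library 3 was high in Mybpc2 (105) and cool library 4 in Bcl6 (1838). Warm library 1 was high in the muscle score (2.08), Myh7 (283) and Myl2 (85.5). Warm library 2 was high in Ucp2 (2810.3) and Fdx1l (144, the others listed at 0). Warm library 3 was high in Rtp4 (196), and warm library 4 high in Hspb8 (209) and Srebf1 (3534) and low in Prnd (59.9).

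The temperature difference itself differed between control and Cre-labelled libraries, by limma's interaction test, in 8 of the genes named (control minus Cre-labelled, log2). The values were 3.50 for Prss12 (adjusted p = 5.64e-04), 1.24 for Tnc (0.029), 1.81 for Gys2 (0.00975), -1.68 for Acsl5 (0.00249), -1.74 for C3 (0.0223), -1.15 for Mt1 (0.0403), -2.09 for Mt2 (0.0035) and -0.81 for Slc25a3 (0.029).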

How the results depend on the processing

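Depth limits low genes most, and no interval for counting error can be given. With equal library totals, controls had 6569 genes higher and 1161 lower and Cre-labelled libraries 4397 and 1127. With equal totals over all but the top 50 and muscle genes these were 5302 and 1601, and 3342 and 1517. The interaction count of 58 was 37 with no variance trend, 34 with the muscle covariate and 24 with the replicate block. Leaving out 1 library, it ran from 21 to 102. The ratio of totals ran from 0.746 to 0.775 with 1 control library left out, at an exact permutation p of 0.0571, the smallest that 3 against 4 allow. Other pseudocounts, filters and variance models kept the control counts within 1.5 times. Leaving out 1 control library gave 2476 to 2893 higher and 2606 to 2874 lower. Same-numbered libraries correlated at -0.066, -0.123, -0.205 and -0.048 in their deviations, so no positive pairing by number was seen. Libraries of different number correlated at -0.08 to 0.14. Whether libraries of the same number shared a batch was not tested. The replicate block gave 2854 higher and 2893 lower. Of 143 genes named, none changed sign with a call on either side under any alternative. Genes without a call could change sign, as Prdm16 did (-0.22 to 0.20 with 1 control library left out). In all, 117 stayed on their side of the threshold under every setting tried for them, and 127 with any 1 control library left out. Leaving out Cre-labelled libraries was not counted for these genes. Of the 26 genes that changed side under some setting, 12 are on the muscle list. The cause of these changes was not tested. Leaving out Cre-labelled libraries, and all left-out libraries for the interaction, was chosen after seeing the data.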
